A study of Mus musculus with 59 samples.

Results

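The regions described here are 1912 stretches of the mouse autosomes in which the repressive mark H3K27me3 was kept in every hindbrain neurosphere library, with or without the K27M histone, and which carried H3K4me3 in every tumour profiled for it. They were chosen by merging the H3K27me3 islands of 6 hindbrain lists (enriched stretches called by the authors) wherever islands shared at least 1 bp. Of 21066 autosomal merged regions, 3265 held an island in all 6 lists, and 1912 of these also overlapped an H3K4me3 peak in each of 5 tumours. Among the other kept regions, 878 overlapped no tumour H3K4me3 peak and 475 overlapped one in 1 to 4 tumours. The hindbrain island calls and the tumour H3K4me3 calls chose the members, so their values in these lists are given as a description, and the calls of a read test run on the hindbrain lists are printed beside its background with nothing read from them. Forebrain islands, tumour islands and tumour H3K27ac peaks took no part in the choice.

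H3K27me3 is laid down on nucleosomes by Polycomb repressive complex 2 (PRC2), whose catalytic subunit is Ezh2, and it spreads outward from sites where the complex is recruited, typically unmethylated CpG islands at promoters of developmental genes. H3K4me3 marks the same class of promoters, and the joint presence of both marks in precursor cells is known as bivalency. The K27M change, found in diffuse midline gliomas, replaces the lysine that PRC2 methylates, and the mutant histone is known to impair PRC2 and to lower H3K27me3 over much of the genome while some sites keep it.

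The labels give embryonic neurospheres (floating cultures of neural precursors, day e15.5) and brainstem tumours from a mouse knock-in of the histone gene H3f3a. Hindbrain neurospheres carried Nestin-cre with H3f3aLSL-K27M-Tag/+ (K27M, replicates 1, 2 and 3) or H3f3aLSL-WT-Tag/+ (WT, replicates 1, 2 and 3), and the replicate is the number of the experiment in the labels. Forebrain neurospheres are represented by 3 K27M lists of the same 3 experiments and the same Nestin-cre genotype. Forebrain WT islands were not analysed here. All these cultures were labelled female except WT hindbrain 3, which was male. Tumours carried Nestin-creERT2, LSL-PDGFRαV544ins and Trp53flox/flox together with H3f3aLSL-K27M-Tag/+ (6 K27M tumours, numbers 1 to 6) or H3f3aLSL-WT-Tag/+ (5 WT tumours, numbers 7 to 11). Tumours 1 to 4 and 9 were male and the others female. Both tumour genotypes thus carried the PDGFRα transgene and the Trp53 alleles, every group carried a tagged H3f3a allele under a Nestin-driven Cre, and the other cells of a tumour are part of its library. The H3K4me3 lists came from K27M tumours 2 and 6 and WT tumours 7, 9 and 10. No neurosphere sample was profiled for H3K4me3. In neurosphere results H3K4me3 therefore means its position in these tumours, and joint presence of both marks in neurospheres was not measured.

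Hindbrain lists held 9078 to 19667 islands with 6067554 to 9996559 reads in them, forebrain lists 6905 to 8076 islands with 5065104 to 6303924 reads, and tumour lists 13936 to 42879 islands with 3208588 to 16323822 reads. WT tumour 10 had the most reads in islands and WT tumour 11 the fewest. Peaks numbered 36284 to 61251 in the lists of H3K27ac and 28480 to 34291 in those of H3K4me3. The island lists carry no total depth, and a shorter island can come from shallower sequencing as well as from less marked chromatin. Coordinates refer to mm9, the first base of a chromosome being 1, and without an annotation of that build regions are named by position alone, so the gene, exon, intron or UTR at each is not stated.

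The 1912 regions had a median width of 18.6 kb, with quartiles of 10.8 and 33.6 kb and a range of 2.4 to 399.4 kb, and they summed to 54.2 Mb. They made up between 50.4% of the kept regions on chromosome 1 and 71.2% on chromosome 17. Just outside the rule lay 309 regions with islands in 5 of 6 lists and H3K4me3 in all 5 tumours, with a median width of 10.8 kb. A further 151 regions with islands in all 6 lists had H3K4me3 in 4 of 5 tumours and a median width of 26.2 kb. Just inside it, 28 members had under 200 bp of H3K4me3 in some tumour and 195 had at most 2 kb of island in some list.

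H3K4me3 shared by all 5 tumours occupied a small part of most regions. Bases under a peak in all 5 tumours, called constant H3K4me3 bases here, were present in 1893 of the 1912 members and summed to 2.64 Mb, which is 4.87% of member length. Their median length was 1.14 kb per member, and 1251 members had a single such stretch. In the other 19 members the 5 tumours' peaks shared no base. Most member bases lay well away from these stretches, with 60.1% more than 5 kb from the nearest one.

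In hindbrain cells the H3K27me3 islands of these regions were much shorter in K27M than in WT. The median island length per region was 7.0, 6.0 and 7.0 kb in K27M hindbrain 1, 2 and 3. In WT hindbrain 1, 2 and 3 it was 14.0, 15.0 and 16.4 kb. Every K27M list lay below every WT list. K27M islands covered 43.5% ± 2.79 of member length and WT islands 87.6% ± 4.57 (SD, n = 3 each). The summed length in K27M was 0.532, 0.468 and 0.492 of that in WT in experiments 1, 2 and 3, a mean ratio of 0.498 ± 0.0326 (SD, n = 3). In the kept regions without H3K4me3 it was 0.492, 0.420 and 0.478 in experiments 1, 2 and 3, a mean of 0.464 ± 0.0382 (SD, n = 3). The members had the higher ratio in 3 of 3 experiments.

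The length ratio varied widely among members. In 1553 members (81.2%) each of the 3 K27M islands was shorter than each of the 3 WT islands, against 79.2% of all 3265 kept regions, and since the rule used these lists nothing is read from that count. In 2 members all 3 K27M lengths exceeded all 3 WT lengths, against 0.398% of all kept regions. The ratio of mean K27M to mean WT length ran from 0.241 at the 10th percentile of members through a median of 0.508 to 0.838 at the 90th.

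The shortening had a centre. Around the middle of the longest constant H3K4me3 stretch of each member, K27M islands formed a narrow peak and WT islands a broad one. At the centre 73.2% ± 2.03 (SD, n = 3) of members lay under a K27M island and 89.8% ± 1.81 (SD, n = 3) under a WT island. At 5 kb to either side the values were 28.1% ± 2.42 and 62.8% ± 4.49, and at 20 kb 8.66% ± 0.821 and 28.5% ± 3.72 (SD, n = 3 each). The K27M curve thus lost most of its height within 5 kb, where the WT curve still covered most members.

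**Figure D1:**
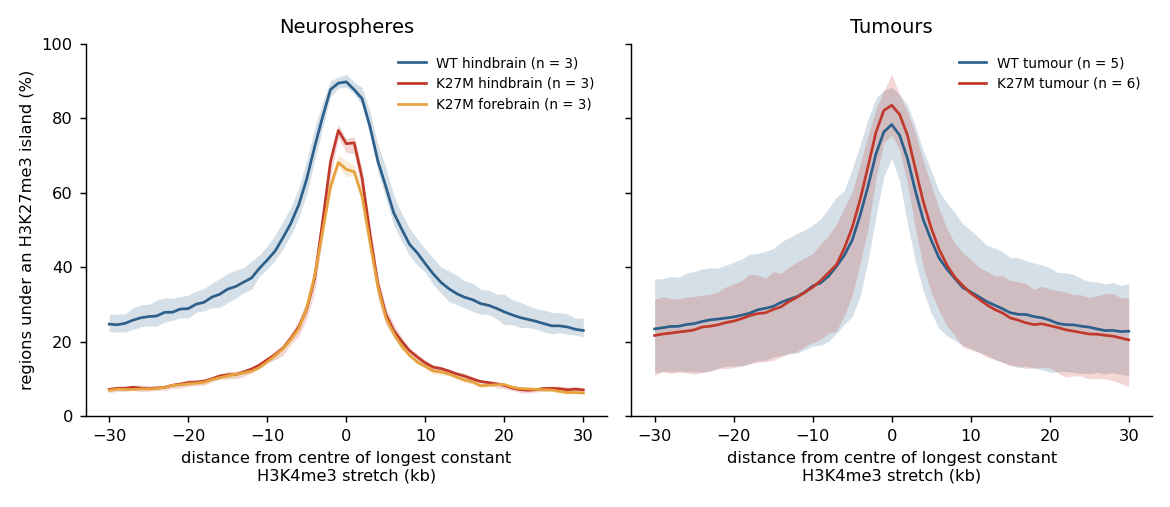
Percent of the members with constant H3K4me3 that lie under an H3K27me3 island (vertical axis) against the distance in kb from the centre of the longest constant H3K4me3 stretch, for neurospheres (left) and tumours (right); lines are group means and bands the lowest to highest library. K27M hindbrain and forebrain curves nearly coincide beyond 5 kb and lie far below the WT hindbrain curve, while the bands of the K27M and WT tumours overlap throughout.

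Most K27M islands still touched the tumours' constant H3K4me3 bases, though fewer than in WT covered all of them. Of the members with constant H3K4me3 bases, an island touched those bases in 87.8%, 86.2% and 88.0% in K27M hindbrain 1, 2 and 3 and in 94.8%, 95.9% and 96.5% in WT hindbrain 1, 2 and 3. Every constant H3K4me3 base of the member lay under an island in 58.3%, 53.2% and 59.4% of them in K27M and in 78.4%, 79.6% and 84.8% in WT hindbrain 1, 2 and 3. The centre of the longest island lay a median of 1.54, 1.52 and 1.65 kb from the centre of the longest constant H3K4me3 stretch in the K27M lists. In the WT lists it lay 2.46, 2.60 and 2.77 kb from it. Within an experiment the K27M centre was the closer one in 61.3%, 64.8% and 62.7% of members. A short island that touches the stretch has its centre near it, so nothing further is read from these offsets.

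Retention, the percent of WT island bases that also lay under the K27M island of the same experiment, fell steeply with distance from H3K4me3. On constant H3K4me3 bases it was 85.0%, 81.0% and 81.8% in experiments 1, 2 and 3. More than 5 kb away it was 39.6%, 34.0% and 36.6%. The mean difference was 45.8 percentage points ± 0.992 (SD, n = 3), with all 3 experiments above 45 points. Between these limits the mean was 80.9% at up to 1 kb, 73.1% at 1 to 2 kb, 51.7% at 2 to 5 kb, 38.2% at 5 to 10 kb and 34.2% at 10 to 20 kb. The decline ended there, since bases over 20 kb away were retained at 37.5% ± 2.88 (SD, n = 3).

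Retention was also compared at matched distance from the end of the WT island. In the outermost 2 kb of WT islands, 68.0% ± 3.61 (SD, n = 3) of constant H3K4me3 bases were retained, against 13.4% ± 1.35 of bases more than 5 kb from H3K4me3. At 2 to 5 kb from the end the values were 83.7% ± 1.79 and 25.3% ± 3.47, and at 5 to 10 kb 88.7% ± 2.51 and 38.5% ± 4.36. Over 10 kb inside the island they were 90.5% ± 2.80 and 57.6% ± 3.87. The gap was present at each depth and averaged 49.0 points over the 4 classes, between 48.3 and 49.4 in the 3 experiments. Kept regions without any H3K4me3 lay between the 2 curves at the ends of islands, with 33.5% ± 3.17 retained in the outermost 2 kb, and at 59.5% ± 3.60 (SD, n = 3) over 10 kb inside they lay within the spread of the member bases far from H3K4me3.

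**Figure D2:**
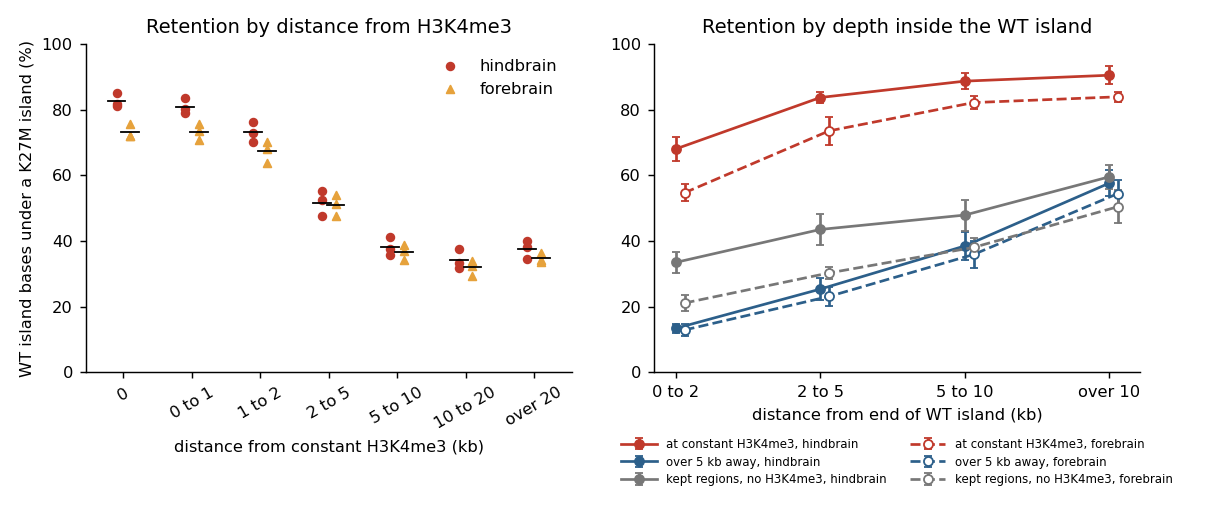
Percent of WT hindbrain island bases under a K27M island (vertical axes), by distance in kb from constant H3K4me3 (left; 1 point per experiment, bars are means) and by distance in kb from the end of the WT island (right; mean and SD over 3 experiments, filled markers hindbrain and open markers forebrain). Bases at constant H3K4me3 lie above bases over 5 kb away at every depth inside the WT island, in both tissues.

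Counted base by base, 18.7 Mb of the member sequence (34.4%) lay under an island in all 6 hindbrain lists and 13.5 Mb (24.9%) lay under an island in all 3 WT lists and in no K27M list. The kept bases occurred in 1895 members and the lost bases in 1585. Of the kept bases 39.1% lay within 2 kb of constant H3K4me3, against 6.42% of the lost bases, whose median distance from it was 11.9 kb. Bases under all 3 K27M islands and no WT island summed to 0.008 Mb in 23 members, so almost nothing was gained.

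Inside the shorter K27M islands the reads were packed more densely, but only in part of the regions. Pooled over members, the lists held 159, 148 and 139 reads per kb of island in K27M hindbrain 1, 2 and 3 and 66.7, 73.6 and 82.3 in WT hindbrain 1, 2 and 3. These counts were not scaled for depth. Summed member reads were similar, 3505643 ± 310747 in K27M and 3534400 ± 556565 in WT (SD, n = 3 each), over the shorter K27M islands. The median over members was nearly equal, 44.8 ± 3.61 in K27M and 46.3 ± 4.07 in WT (SD, n = 3 each). The 100 members with the most reads held 56.5% ± 1.58 of all member reads in K27M and 38.1% ± 0.591 in WT (SD, n = 3 each). A few regions thus took a larger share of the reads in K27M, and reads in a list are relative to each other rather than an absolute amount of the mark.

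Members stood above the kept regions without H3K4me3 by a wider margin in K27M than in WT. Their pooled density was 3.23, 3.40 and 3.08 times that of regions without H3K4me3 in K27M hindbrain 1, 2 and 3 and 1.68, 1.77 and 1.73 times in WT hindbrain 1, 2 and 3. Among regions of 10 to 20 kb the ratios were 2.09 ± 0.0958 and 1.43 ± 0.0478, and for the median per region 1.54 ± 0.0746 and 1.32 ± 0.0344 (SD, n = 3 each). Every K27M list lay above every WT list in each of the 3 versions. Kept regions with H3K4me3 in 1 to 4 tumours had pooled densities of 130.4 in K27M and 70.7 in WT. Regions without H3K4me3 had 45.9 and 43.0, so the wider pooled margin was not particular to members. By the median per region the values were 33.7 and 41.3 with H3K4me3 in 1 to 4 tumours and 29.0 and 35.0 without. Members held 72.7% ± 1.07 of all autosomal island reads in K27M and 48.0% ± 2.20 in WT (SD, n = 3 each).

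**Figure D3:**
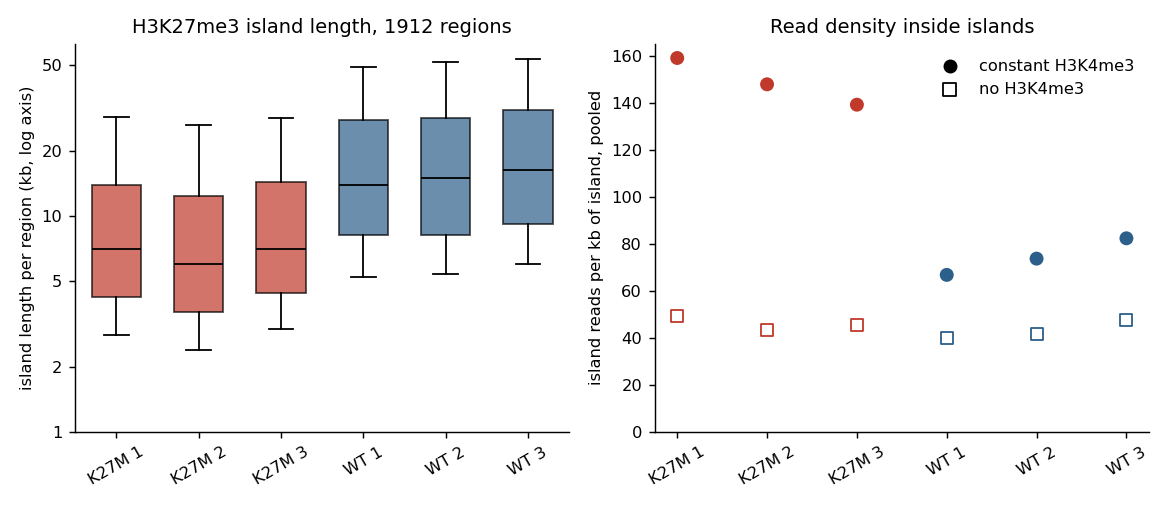
Left, island length per region in kb on a log axis for the 1912 members in each hindbrain list (line, median; box, quartiles; whiskers, 10th and 90th percentile). Right, reads per kb of island pooled over members (filled circles) and over kept regions without H3K4me3 (open squares). Lengths are lower in all 3 K27M lists, and the density of members is higher in them while that of regions without H3K4me3 is similar in both genotypes.

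How far a region shrank went with how densely it was marked in WT cells. Members were ranked by their mean reads per kb in the WT lists and divided into 5 equal groups of 382 or 383. From the sparsest to the densest group, the K27M length was 0.326, 0.383, 0.434, 0.503 and 0.670 of the WT length (SD 0.0241 to 0.0415 over experiments). The sparsest group had 30.9 reads per kb in WT and 32.1 in K27M, whereas the densest had 139.5 ± 18.1 in WT and 285.9 ± 19.7 in K27M (SD, n = 3 each). The densest group held 78.3% of member reads in K27M and 56.6% in WT. Retention rose with density both at H3K4me3 (from 65.6% to 92.6%) and far from it (from 14.9% to 55.5%). The gap between them was 50.7 points in the sparsest group and 37.1 points in the densest. A sparse island is closer to the calling threshold, and its part in these values was not tested.

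Regions with more H3K4me3 shrank slightly less. Over quartiles of constant H3K4me3 length the K27M length was 0.4657, 0.477, 0.499 and 0.540 of the WT length (SD 0.0295 to 0.0354, n = 3). Over the same quartiles the median K27M read density rose from 36.5 ± 2.42 to 57.9 ± 4.95 reads per kb, and the WT density from 44.2 ± 4.63 to 49.7 ± 5.02 (SD, n = 3 each). By width the order was the reverse, with a ratio of 0.624 ± 0.0448 in the narrowest quartile (up to 10.8 kb) and 0.482 ± 0.0288 in the widest (SD, n = 3 each).

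Among the 1131 members with at least 10 kb of WT island in each WT list, the region chr2:28587401-28630000 shrank most, to 0.0604 of its WT length. Its islands measured 3.2, 1.6 and 2.2 kb in K27M hindbrain 1, 2 and 3 and 36.8, 36.4 and 42.6 kb in WT hindbrain 1, 2 and 3. It held 313 bp of constant H3K4me3, an island in all 3 forebrain lists and all 11 tumours, and an H3K27ac peak in none of the tumours. A remnant a few kb long had replaced an island that filled most of the region.

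The next 3 were chr6:83522801-83588800, chr11:84407201-84484400 and chr1:134655601-134740000, with ratios of 0.0663, 0.0778 and 0.0808. In the second of these, chr11:84407201-84484400, the islands fell from 67.0, 69.2 and 74.6 kb in WT to 6.8, 3.8 and 5.8 kb in K27M hindbrain 1, 2 and 3. Their WT densities of 28.6 to 32.1 reads per kb were low among members, and all 3 held islands in all 11 tumours and H3K27ac in at least 8 of them.

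At the other end chr1:14284001-14306600 was longer in K27M than in WT, with a ratio of 1.18. Its islands measured 19.8, 22.6 and 19.4 kb in K27M hindbrain 1, 2 and 3 and 18, 15.6 and 18.6 kb in WT hindbrain 1, 2 and 3, so the groups did not overlap. The density was 115.6 reads per kb in K27M and 58.7 in WT. The other 3 with the highest ratios, chr7:139782401-139801800, chr4:88910401-88959200 and chr2:168403001-168429800, had ratios of 1.13, 1.11 and 1.11.

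The most densely marked region kept nearly its full length in K27M. In chr6:52093001-52284600 the islands measured 189.0, 188.0 and 190.0 kb in K27M hindbrain 1, 2 and 3 and 191.4, 191.6 and 191.2 kb in WT hindbrain 1, 2 and 3. Its density was 740.5 reads per kb in K27M against 360.5 in WT, and its 19.2 kb of constant H3K4me3 was the most of any member. The next 3 by K27M density, chr8:59768401-59841800, chr11:85637001-85662400 and chr2:74466801-74663400, had 707.2, 704.8 and 649.1 reads per kb and length ratios of 0.828, 0.844 and 0.792, against a median of 0.508 over members. All 4 held an island in every forebrain list and every tumour.

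Reads summed per region were called in both directions. In edgeR's quasi-likelihood test of K27M against WT over 3334 regions with an island in all 6 lists, sex chromosomes included, with Benjamini-Hochberg adjustment, 1079 of the 1912 members passed the 0.05 threshold, 599 higher and 480 lower in K27M, against 54.3% of all regions tested. By direction 31.3% of members were higher and 25.1% lower, against 25.9% and 28.4% of all regions, and because the rule used this contrast nothing is read from these counts. The direction rests on the scaling. With library totals in place of TMM factors the median log2 fold of all regions moved from -0.11 to -1.02, and 241 members were called higher and 1206 lower.

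The highest log2 fold belonged to chr2:147006601-147029000, with 1264, 1571 and 1402 CPM (counts scaled to the reads in all regions tested, with TMM factors) in K27M hindbrain 1, 2 and 3 and 7.68, 55.4 and 113.4 in WT hindbrain 1, 2 and 3. The log2 fold was 4.58 ± 0.89 (SE). WT hindbrain 1 had 1.4 kb of island there and the other lists 15.8 to 20.6 kb, so the WT libraries differed among themselves.

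The WT libraries were more alike at chr9:91238801-91321400, with 828.5, 922.8 and 722.7 CPM in WT hindbrain 1, 2 and 3. K27M hindbrain 1, 2 and 3 had 8496, 9306 and 4603 CPM there. At chr14:122845401-122901600 the values were 395.8, 636.2 and 457.8 CPM in WT and 5632, 5788 and 2461 CPM in K27M hindbrain 1, 2 and 3. K27M hindbrain 3 was thus well below the other K27M libraries at both. The log2 folds of these regions were 3.18 ± 0.29 and 3.22 ± 0.38 (SE). In both, the islands kept nearly their full length in K27M. The same test on these libraries picked the named regions for their large log2 folds, so nothing further is read from them. The other 2 of the 5 highest were chr8:48492001-48499000 and chr18:15218001-15230600, at 3.29 ± 0.29 and 2.97 ± 0.59 (SE).

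The 5 lowest log2 folds, from -3.44 to -3.03, belonged to the 4 regions that shrank most and to chr4:154386001-154438200. In the last of these the CPM were 28.5, 47.3 and 15.46 in K27M hindbrain 1, 2 and 3 and 261.6, 253.0 and 241.6 in WT hindbrain 1, 2 and 3.

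Forebrain K27M lists, which had no part in choosing the members, also had their islands around the tumours' H3K4me3. Their gap in retention was smaller than in hindbrain, where the rule required an island in every member. An island was present in 85.9%, 86.7% and 87.4% of members in K27M forebrain 1, 2 and 3, and islands covered 39.5%, 42.4% and 40.4% of member length. Measured against the WT hindbrain islands of the same experiment, retention on constant H3K4me3 bases was 72.0%, 75.6% and 72.1% in experiments 1, 2 and 3, and 34.3%, 36.4% and 32.8% more than 5 kb away. The difference of 38.7 points ± 0.917 (SD) had the same direction in 3 of 3 experiments. The two-sided exact sign-flip test gave p = 0.25, the smallest value that 3 pairs can give.

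The gap in forebrain also held at matched distance from the WT island end. In the outermost 2 kb it was 54.7% ± 2.64 at H3K4me3 against 12.9% ± 1.86 far from it, and over 10 kb inside 83.9% ± 1.53 against 54.5% ± 4.15 (SD, n = 3 each). The mean gap over the 4 classes was 42.0 points, between 41.3 and 43.3 in the 3 experiments. At 2 to 5 kb from H3K4me3, retention was 50.9% ± 3.25 in forebrain and 51.7% ± 3.86 in hindbrain, and over 20 kb away 34.7% ± 1.43 and 37.5% ± 2.88 (SD, n = 3 each). On the H3K4me3 itself forebrain was lower, at 73.2% ± 2.08 against 82.6% ± 2.10 (SD, n = 3 each). The rule required an island of every member in the hindbrain lists but not in forebrain, so no difference between tissues is read from this.

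The bases that hindbrain K27M cells had lost were mostly bare in forebrain K27M cells too. Of the bases kept in all 6 hindbrain lists, 85.8% ± 0.873 lay under a forebrain island, against 11.8% ± 1.73 of the lost bases (SD, n = 3 each). The lowest value for kept bases was 85.0% and the highest for lost bases 13.6%. Kept and lost are defined in hindbrain, and no WT forebrain islands were compared. A base bare in K27M forebrain may thus have been lost there or never marked there, which cannot be told apart.

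Members were present in forebrain more often than the kept regions without H3K4me3, which had an island in 69.7%, 60.1% and 64.7% of cases in K27M forebrain 1, 2 and 3. The difference of 21.8 points was positive in 3 of 3 lists (two-sided exact sign-flip test, p = 0.25, the smallest possible). Within regions under 10 kb, of 10 to 20 kb and over 20 kb it was 21.8, 25.5 and 17.5 points. WT density went with forebrain presence, since 43.1% of the sparsest of the 5 density groups had an island in all 3 forebrain lists and 97.7% of the densest.

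In all, 1522 members (79.6%) had an island in all 3 forebrain lists and 142 (7.43%) in none, against 70.9% and 12.7% of all kept regions. Those with none were narrower, at a median of 12.9 against 20.8 kb, and had a median of 114.8 against 439.7 reads in the K27M hindbrain lists. On average 68.6% of the tumours held an H3K27ac peak in them, against 51.7% in the members with forebrain islands in all 3 lists, and an H3K27me3 island in 74.5% against 92.3%.

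A few well-marked hindbrain islands were absent from forebrain. The region chr12:50463001-50525400 had 21840, 19610 and 22027 island reads in K27M hindbrain 1, 2 and 3, and 11192, 14684 and 17048 in WT hindbrain 1, 2 and 3, yet no forebrain island. All 11 tumours held an island there and none an H3K27ac peak. The next 2 by reads, chr2:115874401-115916800 and chr2:115671801-115696400, lie within 0.3 Mb of each other. They had no forebrain island, H3K27me3 in all 11 tumours, and H3K27ac in 11 and 7 tumours.

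Reads were compared between forebrain and hindbrain K27M cells over regions with an island in all 6 K27M lists, sex chromosomes included. Of 3363 such regions 1720 overlapped a member, and together they reached 1515 members. In edgeR's quasi-likelihood test 518 of the 1720 (30.1%) passed, against 31.4% of all regions, a share near the background. Calls went in both directions, and which of them was commoner turned when the fit held autosomes alone, so no preference for a direction is stated.

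Single regions differed strongly between the 2 parts of the brain. The region chr8:94311601-94338200 had 1480, 1610 and 1458 CPM in K27M forebrain 1, 2 and 3 and 12.2, 18.1 and 29.4 CPM in K27M hindbrain 1, 2 and 3. Its log2 fold was 6.25 ± 0.30 (SE; edgeR adjusted p = 8.76e-06), and its islands grew from between 3.8 and 8.8 kb in hindbrain to between 21.0 and 25.4 kb in forebrain. Next came chr13:78296801-78357400, with 3671, 3387 and 2621 CPM in forebrain and 49.8, 36.3 and 64.1 CPM in hindbrain 1, 2 and 3. The log2 fold there was 6.003 ± 0.25 (SE), with 4.09e-06 as edgeR's adjusted p. It held 15.1 kb of constant H3K4me3 and H3K27ac in all 11 tumours. The other 3 of the 5 highest, chr1:191986601-192004000, chr3:86328401-86383600 and chr7:77459001-77525800, had log2 folds of 4.52 ± 0.27, 4.30 ± 0.75 and 4.27 ± 0.22 (SE).

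In the opposite direction chr2:38175801-38231200 had 158.1, 113.1 and 89.5 CPM in K27M forebrain 1, 2 and 3 and 4205, 4928 and 3780 CPM in K27M hindbrain 1, 2 and 3. Its log2 fold was -5.16 ± 0.24 (SE; edgeR adjusted p = 7.27e-06), and the islands measured 10.2 to 15.8 kb in forebrain and 51.8 to 55.0 kb in hindbrain. The next 4, chr12:31067801-31100800, chr1:14284001-14306600, chr4:84180801-84200000 and chr13:94927801-94961000, had log2 folds of -3.99 ± 0.24, -3.43 ± 0.34, -3.33 ± 0.24 and -3.07 ± 0.25 (SE). The region chr1:14284001-14306600 is the one whose island was longer in K27M than in WT hindbrain cells. In all 10 regions the 3 forebrain and 3 hindbrain libraries did not overlap, and none lost its call under any of 11 alternatives. The same test on these libraries picked the regions for their large log2 folds, so nothing further is read from this.

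Brainstem tumours of both genotypes kept H3K27me3 at most of the members. An island was present in 83.7% to 96.5% of members in the 6 K27M tumours, with a median of 90.2%. The 5 WT tumours had 89.7%, 83.6%, 91.3%, 95.6% and 81.7% (numbers 7 to 11). The means were 90.3% ± 5.19 (SD, n = 6) and 88.4% ± 5.68 (SD, n = 5), and the groups overlapped (two-sided exact permutation test, p = 0.563). In all 11 tumours an island was present in 1306 members (68.3%), against 51.4% of all kept regions and 17.4% of those without H3K4me3.

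The members were marked far more often in tumours than the kept regions without H3K4me3. The percent of regions with an island was 89.4 ± 5.23 in members and 50.6 ± 14.0 in the regions without H3K4me3 (SD, n = 11). The difference of 38.9 points was positive in 11 of 11 tumours (two-sided exact sign-flip test, p = 0.000977, the smallest possible). It was 45.7, 44.2 and 29.9 points in regions under 10 kb, of 10 to 20 kb and over 20 kb. Against the kept regions with H3K4me3 in 1 to 4 tumours it was 14.5 points. The H3K4me3 of 5 of these tumours chose the members. The 2 sets were not matched for density, with WT hindbrain medians of 46.3 ± 4.07 reads per kb in members and 35.0 ± 2.99 without H3K4me3 (SD, n = 3). Among members, an island in all 11 tumours was present in 38.9% of the sparsest density group and 93.7% of the densest. The part of density in the difference was not tested.

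**Figure D4:**
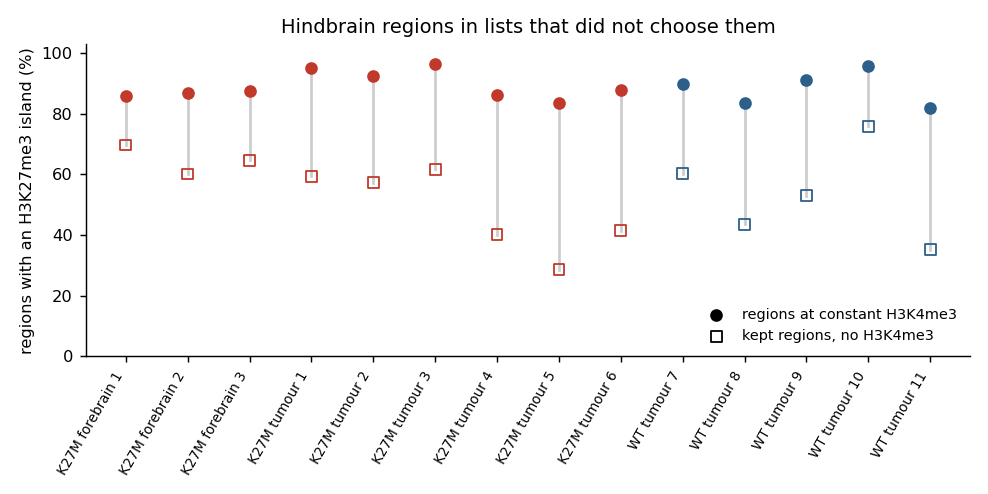
Percent of regions with an H3K27me3 island (vertical axis) in each forebrain and tumour list, for the 1912 members (filled circles) and the 878 kept regions without tumour H3K4me3 (open squares). The members lie higher in all 14 lists, with the widest gap in K27M tumour 5.

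The contrast between K27M and WT islands that was so plain in neurospheres was not detectable in the tumours' island cover. The 6 K27M tumours had islands over 61.5% ± 9.74 of member length and the 5 WT tumours over 60.3% ± 15.8 (SD; two-sided exact permutation test, p = 0.872). WT tumour 10, with the most reads in islands, was highest at 81.1% and WT tumour 11, with the fewest, lowest at 40.3%. The difference of 1.22 points changed sign when K27M tumour 2 (-1.11), WT tumour 8 (-1.48) or WT tumour 11 (-3.77) was left out. No member held an island in all 6 K27M tumours and no WT tumour, or the reverse, against 0.0306% of all kept regions for either pattern.

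The bases lost in K27M hindbrain cells were not bare in K27M tumours. K27M tumours (n = 6) had 54.6% ± 13.2 of these bases under islands and WT tumours (n = 5) 56.4% ± 19.1 (SD; two-sided exact permutation test, p = 0.859). The kept bases were covered to 80.5% ± 5.24 and 77.1% ± 11.2 (p = 0.519 by the same exact test), and the gap between kept and lost bases was 25.9 ± 8.42 and 20.6 ± 7.94 points (exact p = 0.318). Adjusted over these 3 measures the lowest p was 0.779. Kept bases exceeded lost bases in 11 of 11 tumours. In forebrain K27M cells 11.8% of the lost bases lay under an island. Tumour and neurosphere lists differ in cell type, stage, depth and alleles, which cannot be told apart.

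Within the members, K27M and WT tumours were compared on 12 measures, with p-values adjusted over the 12. On constant H3K4me3 bases, islands covered 79.4% to 93.7% in K27M tumours, with a median of 87.1%, and 77.0%, 68.7%, 85.1%, 88.0% and 69.3% in WT tumours 7 to 11. The means of 86.7% ± 5.51 (SD, n = 6) and 77.6% ± 8.87 (SD, n = 5) differed by 9.04 points (two-sided exact permutation test, p = 0.0779, adjusted 0.273). More than 5 kb away they were 52.8% ± 11.5 and 54.0% ± 17.8 (exact p = 0.881). The difference between both kinds of bases was 33.9 ± 7.62 points in K27M and 23.6 ± 10.1 in WT tumours (exact p = 0.0909, adjusted 0.273). These values did not pass the threshold.

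When an equal number of top-ranked islands was taken from each tumour, an alternative chosen after the data were seen, the cover of constant H3K4me3 bases differed by 14.2 points (exact permutation p = 0.00433) and the difference between both kinds of bases by 14.0 points (exact p = 0.0411). Leaving out WT tumour 9 or 10 also took the first past 0.05 (10.9 and 11.6 points), and leaving out K27M tumour 2 or WT tumour 11 the second (12.8 and 13.7 points).

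On average fewer H3K4me3 bases carried H3K27ac without H3K27me3 in K27M tumours, in a measure added after the data were seen. Adjustment over the 12 measures does not cover that choice. H3K27ac alone covered 3.22% to 9.39% of constant H3K4me3 bases in K27M tumours, with a median of 8.15%, and 16.3%, 19.5%, 8.69%, 9.65% and 16.3% in WT tumours 7 to 11. The means were 7.35% ± 2.29 (SD, n = 6) and 14.1% ± 4.70 (SD, n = 5). The groups overlapped in WT tumour 9. The difference of -6.75 points gave p = 0.00649 in the two-sided exact permutation test and 0.0390 adjusted over the 12 measures. The exact permutation test within sex gave p = 0.0133, the smallest value possible, and 0.08 adjusted. In the 6 tumours without an H3K4me3 list the difference was -11.03 points (exact p = 0.0667, the smallest possible there). WT tumours 8 and 11 of that set had the fewest reads in islands among WT tumours, 5307008 and 3208588. Its K27M tumours 4 and 5 had 5338275 and 4905241. The measure counts bases outside islands, so it depends on how many islands a list holds. The part of depth in it was not tested. WT tumour 9, the only male WT tumour, had the lowest WT value, and the male K27M tumours averaged 6.46% against 9.12% in the female ones.

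For H3K27ac by itself no difference was detected. A peak was present in 46.2% to 60.8% of members in K27M tumours, with a median of 52.7%, and in 58.4%, 46.1%, 45.7%, 66.5% and 59.0% in WT tumours 7 to 11. The means of 53.1% ± 6.98 (SD, n = 6) and 55.2% ± 9.04 (SD, n = 5) differed by less than the spread between tumours (two-sided exact permutation test, p = 0.699), and without WT tumour 10 the difference of -2.10 points turned to 0.745. Both marks together covered 29.2% ± 6.95 and 24.1% ± 10.8 of constant H3K4me3 bases (exact p = 0.359), islands alone 57.4% ± 5.55 and 53.5% ± 7.14 (exact p = 0.331), and neither mark 5.999% ± 3.66 and 8.29% ± 4.82 (exact p = 0.383). In a tumour, overlap of 2 marks can come from the same chromatin or from different cells, and the lists cannot tell these apart.

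H3K27ac was commoner at the members than at other kept regions, and it went with the amount of H3K4me3. In the regions without H3K4me3 the K27M tumours (n = 6) had a peak in 11.8% ± 3.89 of cases and the WT tumours (n = 5) in 14.1% ± 2.78 (SD). In the kept regions with H3K4me3 in 1 to 4 tumours the values were 22.5% ± 5.18 and 25.1% ± 5.14 (SD). The H3K4me3 peaks of 5 of these tumours chose the members and define the constant H3K4me3 length, so the H3K27ac values are a description. Over quartiles of constant H3K4me3 length the share of members with H3K27ac was 35.6%, 36.6%, 58.1% and 82.0% in K27M tumours and 37.9%, 37.0%, 62.2% and 83.7% in WT tumours. In all 11 tumours 489 members (25.6%) had a peak, and 345 (18.04%) had none in any, against 16.3% and 34.5% of all kept regions. Of the 489, 197 also held an H3K27me3 island in all 11 tumours and 8 held one in none. By WT hindbrain density the order was the reverse, with H3K27ac in all 11 tumours at 31.6% of the sparsest group and 16.4% of the densest, and an island in all 11 at 38.9% and 93.7%.

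The packing of reads seen in K27M hindbrain cells had a smaller counterpart in tumours, in a ratio added after the data were seen. Its adjusted p over the 12 measures does not cover that choice. The read density of islands at members, relative to islands at kept regions without H3K4me3, was 1.74, 1.56, 1.77, 1.55, 1.44 and 1.59 in K27M tumours 1 to 6 and 1.21, 1.27, 1.26, 1.26 and 1.22 in WT tumours 7 to 11. The 2 genotypes did not overlap. The means of 1.61 ± 0.126 (SD, n = 6) and 1.24 ± 0.0250 (SD, n = 5) differed by 0.364 (two-sided exact permutation test, p = 0.00433, adjusted 0.0390 over the 12 measures; within sex p = 0.0133, the smallest possible, adjusted 0.08). The call was lost in 2 other versions, also chosen after the data were seen. With the median density per region the difference was 0.127 (exact p = 0.0541), and in regions of 10 to 20 kb 0.0725 (exact p = 0.329). In the 6 tumours without an H3K4me3 list, where no exact p can go below 0.0667, it was 0.378. Pooled densities weigh the few strongest regions most.

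**Figure D5:**
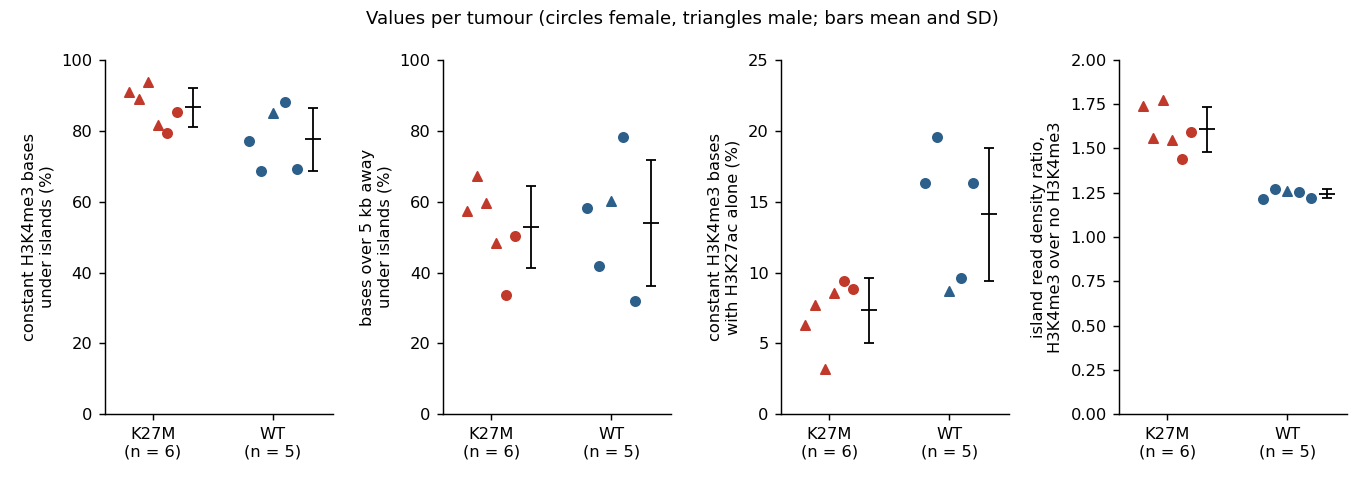
Values of each tumour (K27M red, WT blue; bars, mean and SD) for the percent of constant H3K4me3 bases under H3K27me3 islands, the percent of bases over 5 kb away under islands, the percent of constant H3K4me3 bases with H3K27ac alone, and the ratio of island read density at members to that at kept regions without H3K4me3. In the first panel WT tumours 9 and 10 lie within the K27M range and WT tumours 7, 8 and 11 below it. The second panel overlaps widely, the third overlaps in WT tumour 9, and the fourth shows K27M tumours at 1.44 to 1.77 above WT tumours at 1.21 to 1.27.

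Reads per region were tested over the 3067 regions with an island in all 11 tumours, sex chromosomes included, of which 1301 overlapped a member and together reached 1350 members. In edgeR's quasi-likelihood test of K27M against WT, 174 of the 1301 (13.4%) passed, against 11.8% of all regions. Higher in K27M were 143 (10.99%, against 7.11% of all regions) and lower 31 (2.38%, against 4.66%). The median log2 fold was 0.11 over these 1301 regions and -0.25 over the others, and -0.10 over all. With library totals in place of TMM factors the median of all regions moved to -0.29 and the split to 105 higher and 74 lower. DESeq2 called 287 (223 higher and 64 lower), and without K27M tumour 6 edgeR called 112. A region enters this test only if all 11 lists call it, so members absent from any tumour were not tested.

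Of the 5 highest regions, island length separated the genotypes in chr4:124308401-124352600, at 31.2 to 40.6 kb in the K27M tumours and 3.4 to 22.8 kb in the WT tumours, and overlapped in the other 4. In chr4:99220601-99383400 the K27M tumours had 876 to 4221 CPM with a median of 1602, and WT tumours 7 to 11 had 335.8, 101.2, 298.8, 521.3 and 555.0 CPM. The groups did not overlap, and the log2 fold was 2.49 ± 0.50 (SE; edgeR adjusted p = 0.00721). Its islands spanned 30.8 to 162.8 kb in the K27M tumours, against 10.4 to 55.6 kb in the WT tumours, and H3K27ac was present in all 11. In chr13:40762001-40856000 K27M tumours had 1754 to 4439 CPM with a median of 3870, and WT tumours 223 to 1300 CPM with a median of 941.8. The log2 fold in this region was 1.96 ± 0.40 (SE), and its adjusted p in edgeR was 0.00748.

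For chr8:113865401-113952600, chr4:124308401-124352600 and chr5:42130601-42163400 the log2 folds were 2.10 ± 0.42, 2.03 ± 0.45 and 2.02 ± 0.54 (SE). The groups overlapped in the last, whose call was lost under 6 of 16 alternatives.

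Among the 5 lowest, chr9:45026801-45083600 was the clearest. K27M tumours had 41.3 to 101.1 CPM with a median of 73.8, and WT tumours 7 to 11 had 299.5, 212.4, 156.1, 311.1 and 247.9 CPM. The groups did not overlap, and the log2 fold was -1.79 ± 0.29 (SE), with an edgeR adjusted p of 0.00212. Island length was 5.2 to 19.6 kb in the K27M tumours, against 16.0 to 53.6 kb in the WT tumours. The others were chr13:101262001-101351000, chr11:95663401-95716600, chr8:116320201-116385200 and chr8:33392801-33407800, with log2 folds of -1.87 ± 0.40, -1.51 ± 0.35, -1.51 ± 0.35 and -1.48 ± 0.40 (SE). The groups overlapped in the last of these, whose call was lost under 9 of 16 alternatives, and chr8:116320201-116385200 lost its call under 1.

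In 17 members (0.889%) no tumour had an island, against 4.93% of all kept regions and 14.2% of the kept regions without H3K4me3. The 3 of these with the most WT hindbrain reads were chr18:64008401-64024200, chr4:85678601-85705000 and chr13:63362201-63383800. The first had islands of 5.8, 10.4 and 11.2 kb in K27M and 10.0, 15.8 and 15.6 kb in WT hindbrain 1, 2 and 3, and H3K27ac in 8 tumours. In the third the islands were 4.2, 2.0 and 15.2 kb in K27M and 21.6, 19.6 and 21.0 kb in WT hindbrain 1, 2 and 3, there was no forebrain island, and all 11 tumours had H3K27ac. In the second, H3K27ac was present in 1 tumour.

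At the other end 1143 members (59.8%) held an island in all 3 forebrain lists and all 11 tumours, against 44.1% of all kept regions and 13.3% of those without H3K4me3. These were marked in every H3K27me3 list of the series.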

How the data were processed

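ChIP-seq data (chromatin immunoprecipitation followed by sequencing) for H3K4me3, H3K27ac and H3K27me3 were analysed from 36 of 59 samples, and the other 23, input DNA, were not used here. Per the labels' protocols, tumours were snap frozen and Drosophila S2 chromatin was added before immunoprecipitation. No spike-in scale factor was used here, so no value measures an absolute amount. Per the submitters' processing notes the tools were SICER 1.1, MACS2, BWA 0.7.12, bedtools 2.25.0, R 2.14.0, SAMtools and Picard, without role or order, and the build was mm9. Each deposited H3K27me3 list gives SICER islands of 1 sample (window 200 bp, gap 600 bp) with the count of whole reads in each. The deposited H3K27ac and H3K4me3 lists give, per peak, a score, a fold enrichment ratio and -log10 p and q values from the authors' caller, used only to rank or filter peaks within a list. Summit offsets were not used.

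Islands sharing 1 bp or more were joined into regions across the lists compared, and island reads were summed per merged region. Sums over regions with an island in every list were compared by edgeR 4.0.16 in R 4.3.3 (TMM scaling, quasi-likelihood test, Benjamini-Hochberg adjustment, threshold 0.05), with DESeq2 1.42.0 as an alternative. Each SE was computed from the log2 fold and its F statistic. The scripts were tested on simulated data. Other tests were exact two-sided permutation or sign-flip tests over samples. Other steps used Python 3.11.15, matplotlib 3.10.9, SciPy 1.17.1, pandas 2.3.3 and numpy 2.4.6. The number of samples limits the precision, and with no total depth or background count in the lists no interval per value is given.

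The members, measures and regions were chosen with earlier results of these data known. Named regions are, per read test, the 5 of each direction with the largest absolute log2 fold among those past the threshold; the 4 highest and 4 lowest length ratios with 10 kb or more of island in each WT list; the 3 with no forebrain island and most K27M reads; the 3 with no tumour island and most WT reads; and the 4 with most K27M reads per kb. Density groups, kept and lost bases, read concentration, the density ratio and the bases with H3K27ac alone were added after the data were seen. Gene lists and cell type markers could not be applied for want of an mm9 annotation in the sources used here. The labels name no separate embryos or animals per sample, so the spread behind a p-value may be technical. The labels give experiment numbers that hindbrain and forebrain groups share, which pairs these libraries; within a number, the libraries' deviations from the group mean had correlations of 0.10, -0.03 and 0.02 between K27M and WT hindbrain and at 0.21, 0.24 and 0.21 between forebrain and hindbrain K27M.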

Additional observations from a re-analysis of the deposited data

Results flagged for a closer look

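Among 44 groups of tumours checked for a sample far from the rest, 3 were marked in the CPM of the named tumour regions, and chance marks about 1 in 20 groups. In chr4:124308401-124352600 K27M tumour 5 had 522.4 CPM and the other 5 K27M tumours 249.0 to 313.9. The K27M tumours lay above the WT tumours there with or without it. In chr5:42130601-42163400 WT tumour 11 had 705.3 CPM and the other 4 WT tumours 65.1 to 247.0. This value lay inside the K27M range of 326.4 to 1692 CPM. In chr8:116320201-116385200 WT tumour 8 had 678.1 CPM and the other 4 WT tumours 230.7 to 293.0, and its island measured 63.0 kb against 16.0 to 38.2 kb in them.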

How the results depend on the processing

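Island lists hold no total depth, so cover in tumours is limited by reads, which were fewest in WT tumour 11. With 3 pairs of neurosphere libraries no exact sign-flip test could go below p = 0.25. Retention differences kept their direction under all alternatives run, from 42.2 to 53.7 points in hindbrain, 34.8 to 48.0 in forebrain and 44.1 to 49.4 at matched distance from the island end. With experiment as a replicate block 1013 members were called in hindbrain and 606 regions in forebrain, and the block moved no count by over 1.5 times. No paired analysis was possible for tumours because their numbers are not shared between genotypes.

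In tumours, DESeq2 called 287 regions in place of 174, and leaving out 1 tumour gave 112 to 203. The following tumour differences changed sign or side of the threshold, and the cause was not tested. Leaving out 1 tumour, the difference in island cover ran from -3.77 to 6.43 points (with -1.11 without K27M tumour 2 and -1.48 without WT tumour 8), in H3K27ac from -4.46 to 0.745, in cover of constant H3K4me3 bases from 6.81 to 11.6 and in near minus far cover from 6.87 to 13.7. The same number of top-ranked islands gave 14.2 and 14.0 points for the last 2. In the 6 tumours without H3K4me3 lists kept minus lost bases differed by -0.959 in place of 5.26. There the exact p cannot go below 0.0667, so calls are lost by design, and H3K27ac alone differed by -11.03 points and the density ratio by 0.378. Over all tumours that ratio differed by 0.127 with medians per region and by 0.0725 in regions of 10 to 20 kb. Of the other values for named regions, 364 kept their side of the threshold and 16 lost it.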
